A study of Mus musculus with 7 samples.

Results

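Chromatin at 6 genes of lymphoid homing and egress, Ccr7, S1pr1, S1pr4, Klf2, Klf3 and Il7r, was examined in mouse splenic regulatory T (Treg) cells. The assay was ATAC-seq, which uses a transposase to mark accessible DNA. Their sites were the peaks that overlapped a gene, or lay within 100 kb of it with that gene the nearest protein-coding gene. This gave 59 of the 50213 peaks in the table (mm10), of which 56 passed the filter on low counts. S1pr1 had 29 peaks, Ccr7 12, Klf3 8, Il7r 5, Klf2 4 and S1pr4 1. Peaks are numbered from the lower coordinate within each gene.

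Opa1 KO Treg cells (3 libraries) came from mixed bone marrow chimeras made with Foxp3Cre Opa1 fl/fl marrow. WT Treg cells (4 libraries) came from chimeras made with Foxp3Cre marrow, without the floxed allele. Both kinds of chimera also received CD45.1+ marrow at equal share, and both sorted populations were CD45.2+ CD45.1- CD4+ and positive for the Foxp3-YFP reporter, so Cre was expressed in both. Cre under Foxp3 control acts in cells that express Foxp3, and each sorted cell had developed beside cells of the CD45.1+ marrow. The product of Opa1 fuses inner mitochondrial membranes and shapes cristae. The labels give neither age nor the deleted exons. They do not say whether libraries came from separate mice, so p-values measure the spread between these libraries, which may be technical.

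Circulating T cells enter lymph nodes by way of CCR7 and leave them along a gradient of sphingosine-1-phosphate (S1P), which S1PR1 senses. KLF2 is a transcription factor of resting T cells that switches on S1pr1, and FOXO1 promotes transcription of Klf2, Ccr7 and Il7r. In Treg cells this programme marks the central, lymphoid-recirculating state and is low in effector cells, which remain in or move to tissues. IL-7 receptor alpha is usually low on Treg cells compared with conventional CD4+ T cells.

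Total counts in peaks ran from 1658436 to 3384325 in the KO libraries, of which KO replicate 1 was the deepest, and from 1534394 to 2134586 in the WT libraries. Values are CPM, counts divided by the scaled library total and put on a common scale. Counts of WT replicates 2 and 3, halved for their 2 mates, were alike within sampling noise over 36418 peaks (chi-square p = 0.0843). Over 11332 more abundant peaks they were not (chi-square p = 0.0346), and every other pair within a genotype differed over the larger set (p at most 0.000991). On the larger set alone, the mean of WT replicates 2 and 3 counted as 1 sample, giving n = 3 for both genotypes in each mean ± SD. The tests kept all 7 libraries, so the SDs and the p-values treat these 2 libraries differently. Averaging them can narrow a WT SD. The 1 Opa1 peak had 32.0, 28.0 and 41.0 CPM in KO replicates 1 to 3 and 35.4, 32.5, 36.2 and 36.5 CPM in WT replicates 1 to 4. It covers an end of the gene and does not show whether the floxed exons were lost. The loci of 6 Treg and T cell markers, Foxp3, Il2ra, Ctla4, Ikzf2, Cd4 and Cd3e, all held peaks, with summed CPM of 1390 to 1480 in KO and 1350 to 1470 in WT. The B cell genes Ms4a1 and Cd79a had no peak. At 3 of 5 myeloid loci with peaks the sum was 42.0 to 52.4 CPM in KO and 53.9 to 60.7 in WT, with Lyz2 and Csf1r at 0. At 2 of 3 erythroid loci with peaks the sum was 40.9 to 45.1 CPM in KO and 21.0 to 37.5 in WT, almost all of it at Gata1, with Hbb-b1 at 0. Of the 5 tested myeloid and 2 tested erythroid peaks 0 passed an adjusted p of 0.05 (edgeR test given below), against 0.0867% of all tested peaks. B cell loci (27.0 to 35.3 CPM in KO, 30.5 to 37.3 in WT), CD8 T cell loci (116 to 142 in KO, 123 to 134 in WT) and NK cell loci (167 to 177 in KO, 140 to 171 in WT, with no peak at Ncr1) overlapped between the genotypes. The part of these differences in the results below was not tested. In bulk chromatin, a change in the share of cells that are open at a site and a change in openness per cell cannot be told apart.

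RefSeq promoter sequences (GRCm38.p6, the assembly that mm10 names), from 250 bases before to 50 after the annotated start, were found for 4 of the 6 genes. Those of Klf2, Klf3 and Il7r are shown because a peak covered the start, and because their base composition differs. Each is written 5′ to 3′ on the gene's strand with CpG dinucleotides in capitals. Klf2 lies on the plus strand (chr8:72318812-72319111), Klf3 on the plus strand (chr5:64803271-64803570) and Il7r on the minus strand (chr15:9529827-9530126).
Klf2: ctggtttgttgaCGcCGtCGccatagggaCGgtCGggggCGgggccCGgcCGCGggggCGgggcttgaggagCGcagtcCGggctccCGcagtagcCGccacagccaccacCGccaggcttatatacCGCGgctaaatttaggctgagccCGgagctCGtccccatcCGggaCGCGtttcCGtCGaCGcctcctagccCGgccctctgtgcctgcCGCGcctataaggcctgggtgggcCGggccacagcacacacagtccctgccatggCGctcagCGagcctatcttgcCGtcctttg
Klf3: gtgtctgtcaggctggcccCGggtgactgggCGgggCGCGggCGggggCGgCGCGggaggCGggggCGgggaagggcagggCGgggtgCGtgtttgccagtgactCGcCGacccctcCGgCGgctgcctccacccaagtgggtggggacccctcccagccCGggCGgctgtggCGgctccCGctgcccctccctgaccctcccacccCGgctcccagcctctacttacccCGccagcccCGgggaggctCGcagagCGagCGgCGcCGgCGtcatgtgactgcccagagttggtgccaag
Il7r: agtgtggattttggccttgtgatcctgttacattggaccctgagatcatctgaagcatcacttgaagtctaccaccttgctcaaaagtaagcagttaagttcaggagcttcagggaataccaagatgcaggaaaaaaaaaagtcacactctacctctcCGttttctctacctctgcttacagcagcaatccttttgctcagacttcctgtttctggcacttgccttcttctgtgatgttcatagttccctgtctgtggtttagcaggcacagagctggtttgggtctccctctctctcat
The Klf2 promoter held 32 CpGs at 69.3% G and C, and the Klf3 promoter 29 CpGs at 76.7%. The Il7r promoter held 1 CpG at 45.7%, and that of S1pr4, not printed, 1 CpG at 41.0%. Over 17491 protein-coding promoters the median was 13 CpGs and 56.3% G and C. The peaks covered all 300 bases at Klf2 and Klf3, 159 of 300 at Il7r and 0 of 300 at S1pr4, whose peak lay inside the gene. Short motifs were searched on both strands in the 4 promoters. The forkhead letters GTAAACA, the KLF letters CACNCCC, the ETS letters CCGGAAG, the TCF letters CTTTGA and the AP-1 letters TGANTCA were found in none of them. Of all promoters 2.94%, 31.4%, 11.9%, 14.9% and 7.08% hold these motifs, in that order. The RUNX letters TGTGGT, held by 15.1% of all promoters, occurred once, at base 4 after the start in Il7r. These counts cover only the letters in these windows.

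In KO against WT Treg cells, 0 of the 56 tested peaks were called (edgeR quasi-likelihood test, Benjamini-Hochberg adjusted p under 0.05). Over all 38041 tested peaks 33 were called, which is 0.0867%, with 0.0473% higher and 0.0394% lower in KO. The smallest adjusted p among the homing and egress peaks was 0.239. An unadjusted p under 0.05 was reached by 7 of the 56 peaks, or 12.5%, against 9.46% of all tested peaks. All 7 had higher values in KO and lay at Ccr7, S1pr1 and Klf2. Of all tested peaks 4.7% met that limit with higher and 4.76% with lower values in KO. DESeq2 and limma-voom also called 0 of the peaks. The genotypes did not overlap at 4 of the 56 peaks (7.14%), KO above WT at each, against 9.32% of all tested peaks, 4.84% with KO above and 4.47% with KO below. The log2 fold change was above 0 at 34 peaks, or 60.7%, with a median of 0.13, against 49.7% and a median of -0.0024 over all tested peaks. Peaks of 1 gene share a locus and are not independent, and 27 of the 56 belong to S1pr1. The standard error of the log2 fold change ran from 0.11 to 0.58, so only large changes could be seen at the weak sites.

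**Figure D1:**
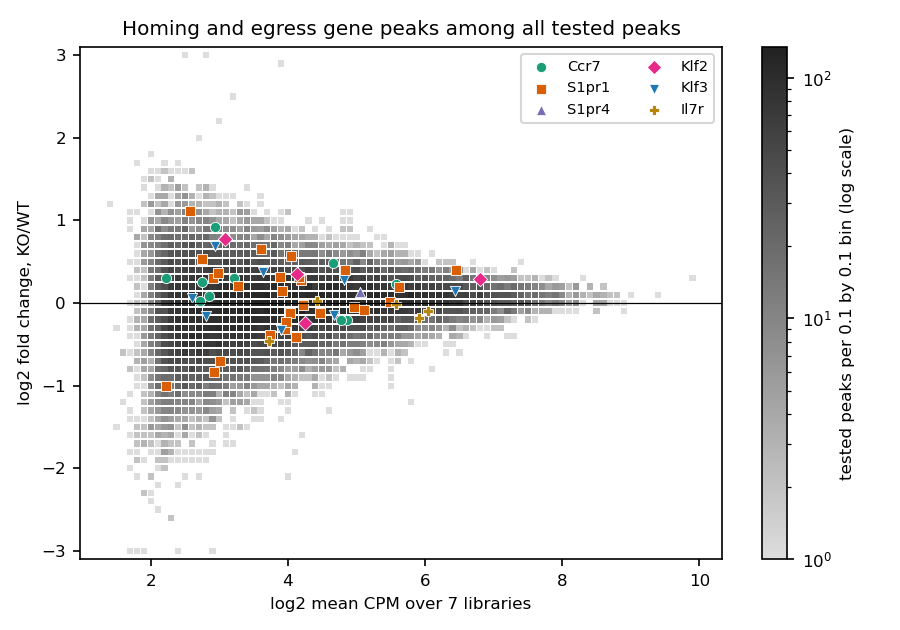
Log2 fold change (KO over WT) against log2 mean CPM for the 56 tested peaks of the 6 genes (coloured symbols) over all 38041 tested peaks (grey bins, darker where more peaks fall, values beyond 3 drawn at 3). The coloured symbols lie inside the grey cloud, between -1.01 and 1.11, and spread more widely at low CPM.

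Counts summed per gene were then tested in the same way over 13270 genes, of which 50, or 0.377%, passed an adjusted p of 0.05. None of the 6 genes was among them. Of all gene sums 11.5% had an unadjusted p under 0.05, 5.88% with higher and 5.62% with lower values in KO, and 2 of the 6 genes, Klf2 and Ccr7, both higher in KO, were among these. The 0.377% called were 0.128% higher and 0.249% lower. With this assignment of peaks, the largest of the 6 log2 fold changes was that of Klf2, at 0.26, and Ccr7, Klf3, S1pr4 and S1pr1 had values from 0.10 to 0.17. Il7r had the only negative value, -0.11. The order changed with the assignment: with only peaks that overlap the gene, Ccr7 had 0.36 and Klf2 0.29, and by nearest transcript start Klf3 had 0.26, S1pr4 0.21 and Klf2 0.19. Over all tested genes 51.7% had a value above 0, with a median of 0.007.

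**Figure D2:**
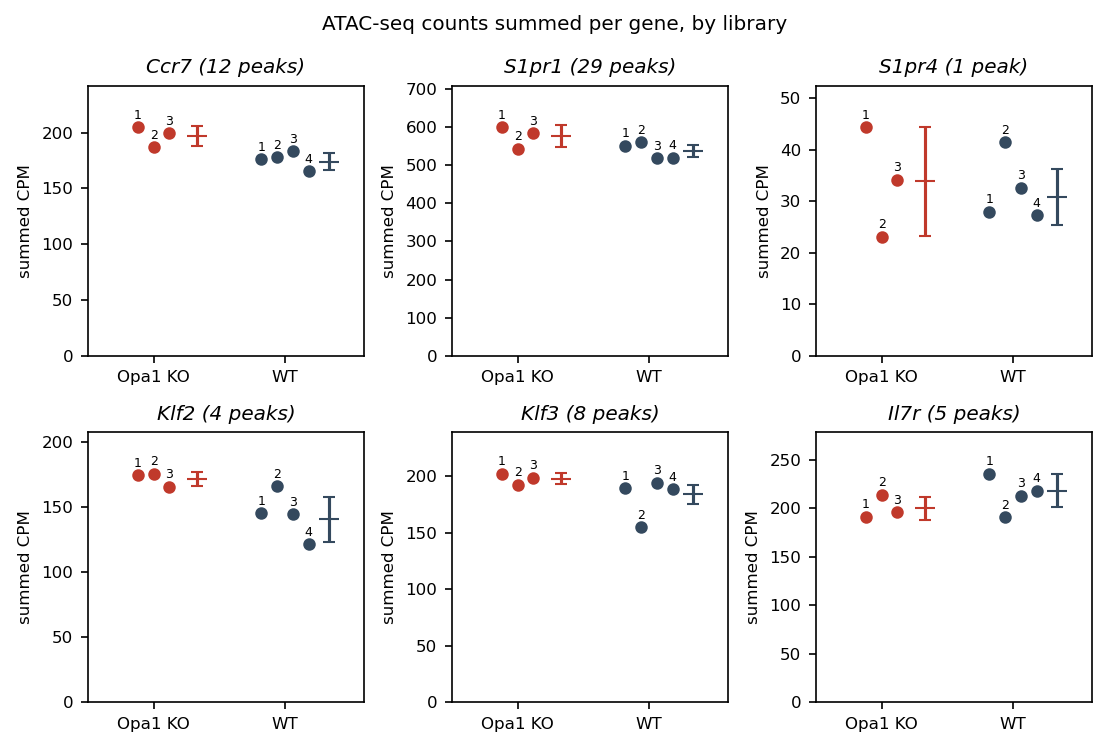
Summed CPM of all peaks of each gene in the 3 KO libraries (red, left) and the 4 WT libraries (dark, right), numbered by replicate, with mean and SD beside them (n = 3 each, WT replicates 2 and 3 averaged). At Ccr7 the KO libraries, from 187 to 205 CPM, lie above the WT libraries, from 165 to 183, while at the other 5 genes the genotypes overlap.

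Of the transcription factors, Klf2 (chromosome 8, 72319062 to 72321654) had most of its signal, 71.3% of its summed CPM, in peak 3, which covered the start (72318708 to 72319483). This peak was 775 bp wide and stood above 97.9% of all peaks in level. It had 131, 130 and 111 CPM in KO replicates 1 to 3 and 97.9, 123, 100 and 86.7 CPM in WT replicates 1 to 4. WT replicate 2 reached into the KO range, and the other WT libraries lay below it. KO averaged 124 ± 11.2 CPM and WT 98.8 ± 12.6 (SD, n = 3 each), or 0.29 as log2 fold change (SE 0.11, unadjusted p = 0.0108, adjusted p = 0.367). The 95% interval ran from 1.05-fold to 1.43-fold. The summed Klf2 counts came to 175, 176 and 166 CPM in KO and 146, 166, 145 and 122 CPM in WT. The highest WT library just reached the lowest KO library. KO averaged 172 ± 5.48 and WT 141 ± 17.3 CPM (SD, n = 3 each), or 0.26 as log2 fold change (SE 0.10, unadjusted p = 0.00658, adjusted p = 0.225). Among all tested genes 2.9% had a smaller p. Without WT replicate 2 the adjusted p of the sum was 0.105, and over all alternatives it ran from 0.105 to 0.573. A weak site, peak 2, lay 15000 bp below the gene. It had 6.52, 15.8 and 11.4 CPM in KO and 7.46, 11.7, 3.5 and 3.04 CPM in WT. The groups overlapped there (log2 fold change 0.77, SE 0.41, adjusted p = 0.566). Peak 1 also had a positive log2 fold change, 0.35, and peak 4, above the gene, a negative one, -0.24.

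Klf3 encodes a related zinc finger protein that acts mostly as a repressor and is itself a target of other KLF factors in mouse red cell precursors. The gene (chromosome 5, 64803521 to 64832901) overlaps the predicted gene Gm38457, which shares peaks 1 to 3. Peak 1 covered the start (64802921 to 64803629) and held 46.0% of the summed CPM. It had 95.4, 92.6 and 89.3 CPM in KO and 92.3, 64.3, 92.8 and 81.7 CPM in WT. WT replicate 2 was the low library here, and WT replicates 1 and 3 lay within the KO range. The log2 fold change was 0.15 (SE 0.12, adjusted p = 0.749), and 0.06 without WT replicate 2. The summed counts came to 202, 193 and 199 CPM in KO and 189, 155, 194 and 189 CPM in WT. The log2 fold change of the sum was 0.12 (SE 0.09, adjusted p = 0.651), and it was 0.06 without WT replicate 2 and 0.26 (adjusted p = 0.216) with peaks assigned by nearest transcript start. The peak with the smallest p, peak 6, lay 23.4 kb above the gene and had 6.52, 9.75 and 13.5 CPM in KO and 4.66, 6.49, 4.67 and 8.12 CPM in WT. Its groups overlapped (log2 fold change 0.69, SE 0.41, adjusted p = 0.62), and without KO replicate 3 the log2 fold change was 0.41. Of the 8 tested Klf3 peaks 5 had a positive and 3 a negative log2 fold change.

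Of the egress receptors, S1pr1 (chromosome 3, 115710433 to 115715055) is a short gene in an open landscape of 29 peaks over a region without other protein-coding genes. The nearest ones, Olfm3 and Dph5, lie 585 kb and 173 kb away. Of the 14277 genes with peaks 54, S1pr1 among them, had as many or more, where the median gene had 2. Of the 29 peaks 27 were tested, 15 with a positive and 12 with a negative log2 fold change. The strongest was not at the gene but 27.2 kb below it. That site, peak 8 (115682540 to 115683210), had 103, 107 and 92.4 CPM in KO and 69.5, 95.4, 71.2 and 72.0 CPM in WT. All KO libraries exceeded 3 of the 4 WT libraries, and WT replicate 2 lay within the KO range. KO averaged 101 ± 7.65 CPM and WT 74.9 ± 7.36 (SD, n = 3 each), or 0.40 as log2 fold change (SE 0.12, unadjusted p = 0.00172, adjusted p = 0.239). This WT SD averages WT replicates 2 and 3, at 95.4 and 71.2 CPM, and so understates the spread between the 4 WT libraries. Of all tested peaks 0.72% had a smaller p. The 95% interval ran from 1.11-fold to 1.56-fold. Without WT replicate 2 the log2 fold change was 0.51 and the adjusted p 0.0727, and over all 17 alternatives the adjusted p ran from 0.0727 to 0.466.

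The peak at the higher end of S1pr1, peak 16 (115714729 to 115715152), had the next highest level of the locus, at 51.2, 50.6 and 57.6 CPM in KO and 41.5, 39.6, 46.1 and 57.8 CPM in WT. WT replicate 4 was the highest of all 7 libraries there, so the groups overlapped (log2 fold change 0.19, SE 0.16, adjusted p = 0.763). The start of S1pr1 was not in the promoter table, so this peak is described by position alone. Between peak 8 and the gene, 2 weak sites did not overlap between the genotypes. Peak 12, 14.9 kb below the gene, had 7.70, 6.70 and 11.4 CPM in KO and 6.53, 5.19, 4.08 and 0 CPM in WT. The closest pair, KO replicate 2 and WT replicate 1, were 6.70 and 6.53 CPM (log2 fold change 1.11, SE 0.50, adjusted p = 0.472). Without WT replicate 4, which had 0 counts there, the log2 fold change was 0.68, and with limma-voom on all libraries it was 1.83. Peak 14, 3.41 kb below the gene, had 14.8, 19.5 and 12.5 CPM in KO and 12.1, 9.09, 11.7 and 6.09 CPM in WT (log2 fold change 0.66, SE 0.32, adjusted p = 0.508). These sites sat among others with values of both signs. Peaks 9 and 13 had log2 fold changes of 0.21 (SE 0.35) and 0.30 (SE 0.40). Peaks 10 and 11, within 3 kb of peak 12, had log2 fold changes of -0.70 (SE 0.43) and -0.84 (SE 0.44), and peak 18, 13.3 kb above the gene, had -1.01 (SE 0.58). Summed over the 29 peaks, S1pr1 had 599, 543 and 584 CPM in KO and 550, 560, 518 and 519 CPM in WT, with overlapping groups. The log2 fold change of the sum was 0.10 (SE 0.06, adjusted p = 0.54). Its 95% interval, from 0.988-fold to 1.17-fold, was the narrowest of the 6 genes on the log2 scale.

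**Figure D3:**
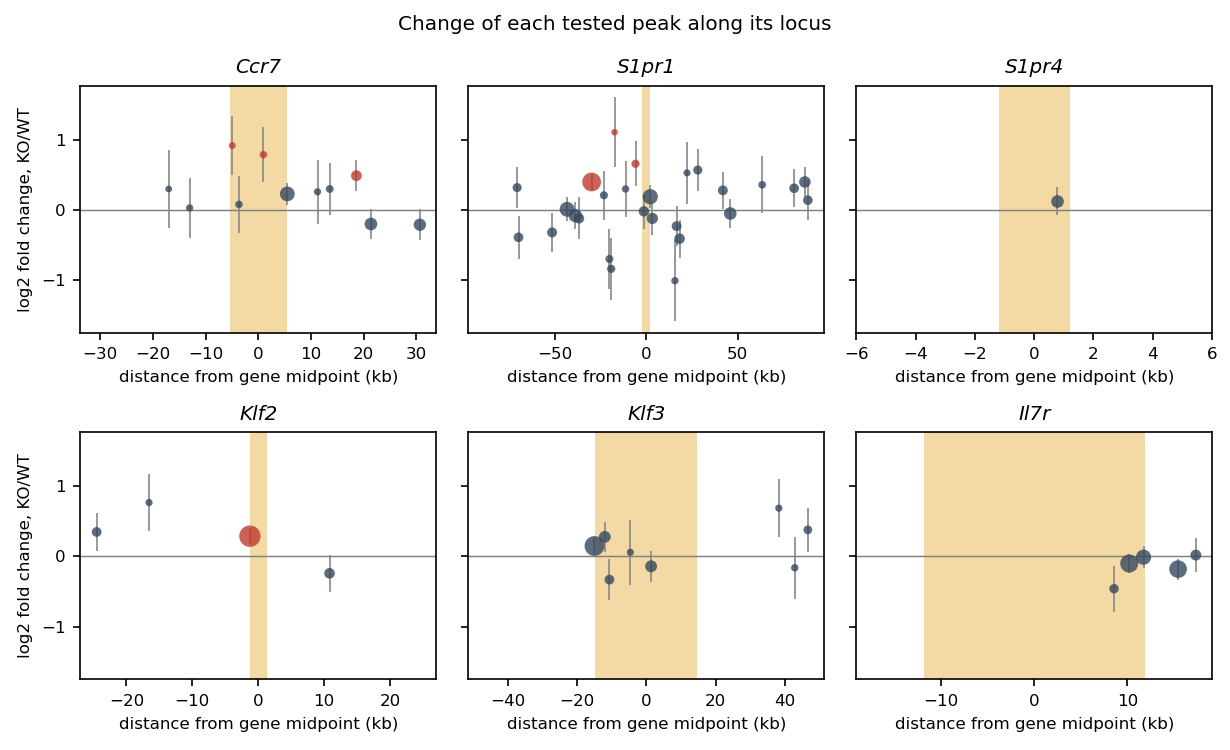
Log2 fold change (KO over WT) with SE of each tested peak against its distance from the gene's midpoint in kb, with negative distances towards the lower coordinate, the gene shaded, symbol size growing with WT mean CPM, and peaks of unadjusted p under 0.05 in red. The 7 red peaks lie at Ccr7, S1pr1 and Klf2, above 0, and the strong Klf2 and S1pr1 sites are red at small values of 0.29 and 0.40.

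S1PR4 is another S1P receptor of lymphocytes. S1pr4 (chromosome 10, 81497745 to 81500137) lies between Ncln and Gna15, 0.791 kb and 2.18 kb away, and only 1 peak (81499563 to 81499882) was assigned to it. It had 44.4, 23.1 and 34.3 CPM in KO and 28.0, 41.5, 32.7 and 27.4 CPM in WT. KO replicates 1 and 2 held both the highest and the lowest of the 7 values. The log2 fold change was 0.13 (SE 0.20, adjusted p = 0.9), and it was -0.14 (SE 0.24) without KO replicate 1 and 0.32 without KO replicate 2. Without WT replicates 1, 2 or 4 it was 0.06, 0.26 and 0.05. With the counts taken as a gene sum, the 95% interval of 0.837-fold to 1.43-fold was the widest of the 6 genes on the log2 scale.

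The homing receptor gene Ccr7, whose product responds to CCL19 and CCL21 of the T cell zone, lies on chromosome 11 (99144199 to 99155077). Its strongest peak, peak 7 (99154889 to 99155434), covered the higher end of the gene and held 25.9% of the summed CPM. It had 57.2, 40.8 and 58.1 CPM in KO and 43.4, 40.9, 51.3 and 43.6 CPM in WT. KO replicate 2 was the lowest of all 7 libraries and the other 2 KO libraries were the highest (log2 fold change 0.23, SE 0.16, adjusted p = 0.695). Without KO replicate 2 the log2 fold change was 0.37. Peak 10, 13.0 kb above the gene (99168070 to 99168500), had 28.4, 32.3 and 30.1 CPM in KO and 23.3, 24.02, 23.3 and 15.2 CPM in WT. All KO libraries lay above all WT libraries (log2 fold change 0.49, SE 0.22, unadjusted p = 0.0299, adjusted p = 0.47). Wholly inside the gene lay 3 weak sites. Of these, peak 5 had 9.48, 7.31 and 5.19 CPM in KO and 7.46, 9.74, 4.67 and 6.59 CPM in WT. Its groups overlapped (log2 fold change 0.08, SE 0.41), and peaks 4 and 6 had larger estimates. Peak 4 had 8.59, 9.75 and 13.0 CPM in KO and 2.80, 7.79, 8.17 and 3.55 CPM in WT, without overlap (log2 fold change 0.92, SE 0.42, adjusted p = 0.47). Peak 6 had 11.9, 10.96 and 10.9 CPM in KO and 3.73, 3.90, 7.001 and 11.2 CPM in WT, where WT replicate 4 lay within the KO range (log2 fold change 0.79, SE 0.39, adjusted p = 0.513; 1.2 without that library). The sites farthest above the gene, peaks 11 and 12, had log2 fold changes of -0.20 (SE 0.21) and -0.21 (SE 0.22).

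Ccr7 was the only one of the 6 genes whose sums did not overlap between the genotypes, which 9.71% of all tested genes also showed, 5.09% with KO above and 4.62% with KO below. The sums were 205, 187 and 200 CPM in KO and 176, 178, 183 and 165 CPM in WT. KO averaged 197 ± 9.25 CPM and WT 174 ± 7.82 (SD, n = 3 each), or 0.17 as log2 fold change (SE 0.09, unadjusted p = 0.048, adjusted p = 0.433). A smaller p was found for 11.1% of tested genes. With only the 4 peaks that overlap the gene the log2 fold change was 0.36 (adjusted p = 0.27), against 0.29 for Klf2 counted in the same way.

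**Figure D4:**
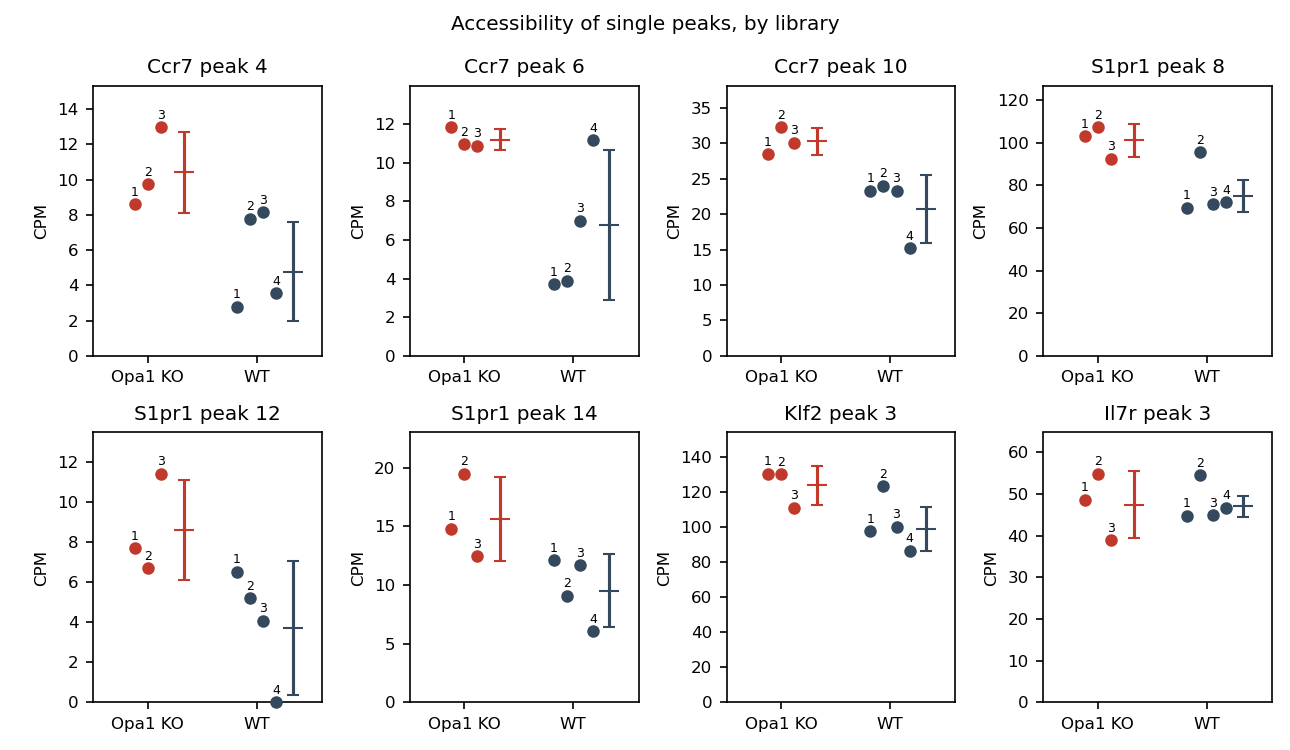
CPM of the 7 peaks with an unadjusted p under 0.05 and of the Il7r start peak in the 3 KO libraries (red, left) and 4 WT libraries (dark, right), numbered by replicate, with mean and SD beside them (n = 3 each, WT replicates 2 and 3 averaged). KO libraries lie above all WT libraries at Ccr7 peaks 4 and 10 and S1pr1 peaks 12 and 14, WT replicate 4 reaches the KO range at Ccr7 peak 6 and WT replicate 2 at S1pr1 peak 8 and Klf2 peak 3, and at Il7r all WT libraries lie within the KO range.

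Il7r (chromosome 15, 9506159 to 9529941) had its 5 peaks around the start. Per kb of peak it had the highest values of the 5 genes with several peaks, at 102 CPM per kb in KO and 112 in WT. Those of the other 4 ran from 48.5 to 72.7 CPM per kb in KO and from 42.8 to 66.4 in WT. S1pr4, with 1 peak, had 106 CPM per kb in KO, above Il7r, and 96.6 in WT. This measure divides by the width of all peaks of a gene, weak distal ones included. Among single peaks, Klf2 peak 3 had 160 CPM per kb in KO and 127 in WT, and Il7r peak 4 had 124 and 145. Il7r also differed from the others in the sign of its values. Of its 5 peaks 4 had negative log2 fold changes, with a median of -0.10. None of these 5 peaks was called, and the difference from the other genes was not tested. The start peak, peak 3 (9529600 to 9529985), had 48.6, 54.8 and 38.9 CPM in KO and 44.8, 54.5, 44.9 and 46.7 CPM in WT. KO averaged 47.4 ± 8.01 CPM and WT 47.0 ± 2.50 (SD, n = 3 each), or -0.01 as log2 fold change (SE 0.16, adjusted p = 0.996) whose sign turned in 4 of 17 alternatives. The strongest peak, peak 2 (9527942 to 9528570), lay inside the gene 1620 bp past the start. It had 64.6, 60.9 and 65.4 CPM in KO and 76.0, 59.1, 67.1 and 69.0 CPM in WT (log2 fold change -0.10, SE 0.14, adjusted p = 0.886; -0.06 without KO replicate 2 and -0.04 without WT replicate 1). All KO libraries lay below WT replicates 1, 3 and 4 and above WT replicate 2.

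The peak with the smallest p at Il7r, peak 1 (9526522 to 9526722), also inside the gene, had 8.29, 14.6 and 10.4 CPM in KO and 19.6, 19.5, 12.3 and 8.12 CPM in WT. WT replicate 4 was the lowest of the 7 libraries (log2 fold change -0.46, SE 0.33, adjusted p = 0.705). This log2 fold change was -0.25 without KO replicate 1 and -0.28 without WT replicate 1, and ran from -0.68 to -0.25 over all alternatives. Peak 4 (9533276 to 9533730), centred at -3627 bp from the start, is given because a conserved upstream enhancer bound by FOXO1 is known at Il7r in mouse T cells, and was chosen after its values were seen. It had 50.1, 60.3 and 58.6 CPM in KO and 70.9, 43.5, 61.8 and 74.6 CPM in WT. WT held both the highest and the lowest libraries (log2 fold change -0.18, SE 0.15, adjusted p = 0.762). Whether it is that enhancer was not tested. Summed, Il7r had 191, 214 and 196 CPM in KO and 236, 191, 213 and 218 CPM in WT, or -0.11 as log2 fold change (SE 0.08, adjusted p = 0.684). It was -0.06 without WT replicate 1, -0.07 without KO replicate 1 and -0.03 with peaks assigned by nearest transcript start. The 95% interval ran from 0.827-fold to 1.04-fold.

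**Figure D5:**
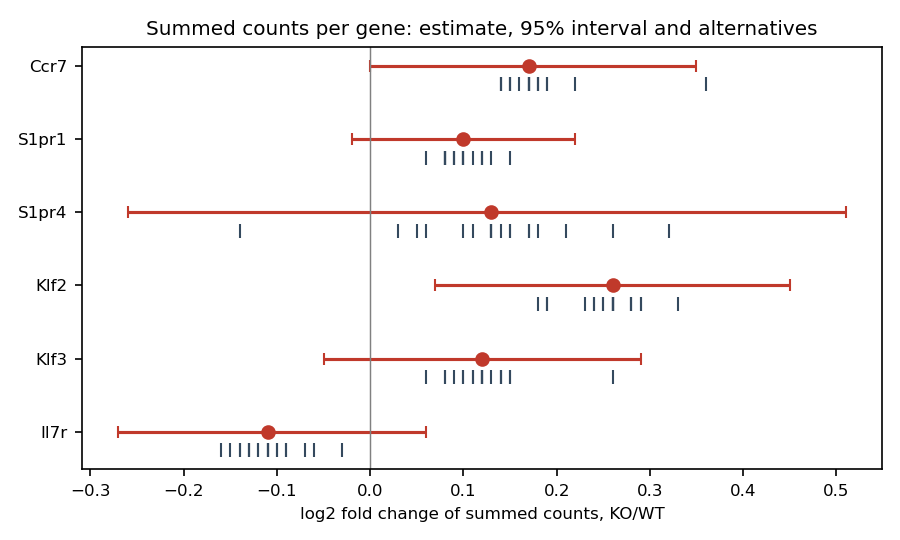
Log2 fold change (KO over WT) of the summed counts of each gene with its 95% interval (red), and below it the values under the alternatives (dark ticks). Among the red values Klf2 has the largest, 0.26, and Il7r the only negative one, -0.11, and the ticks of S1pr4 cross 0.

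Of the 59 peaks 3 were not tested because of low counts, Ccr7 peak 1 and S1pr1 peaks 1 and 26. No library had more than 16 counts at any of them.

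Further genes of the same pathways were described by counts, since no set test was run. An unadjusted p under 0.05 was reached by 10.5% of tested peaks in the S1P pathway, 3.3% among homing and positioning receptors, 15.1% in the KLF family, 13.6% among KLF2 regulators and partners and 9.09% in IL-7 receptor signalling, against 9.46% of all tested peaks. In the S1P pathway, which makes, exports, breaks down and senses the lipid, 0 of 38 tested peaks at 12 of the 15 genes were called, with 16 above 0 and 22 below (median log2 fold change -0.028). Its peak with the smallest p lay inside Sphk2, a kinase that makes S1P (chromosome 7, 45715116 to 45715555). It had 72.0, 69.4 and 73.7 CPM in KO and 47.6, 53.9, 39.7 and 46.7 CPM in WT, without overlap (log2 fold change 0.61, SE 0.15, adjusted p = 0.0574). Of all tested peaks 9.32% did not overlap either, 4.84% with KO above and 4.47% with KO below. The Sphk2 peak passed in 4 of 17 alternatives, among them the fit without WT replicate 2 (adjusted p = 0.0344). The Sphk2 sum was chosen after its values were seen. It had 84.7, 88.9 and 92.9 CPM in KO and 60.2, 72.05, 59.5 and 59.9 CPM in WT (log2 fold change 0.50, adjusted p = 0.0535). It passed in 5 of 20 alternatives, at adjusted p values from 0.0274 (without WT replicate 2) to 0.0485. Of the 11 tested gene sums of the pathway 5 were above 0 and 6 below, with 0 called. Among 15 further homing and positioning receptors 0 of 91 peaks were called, 43 above 0 and 48 below (median -0.025). Of their 15 gene sums 9 were above 0 and 6 below, with 0 called.

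In the rest of the KLF family 0 of 73 peaks were called, 38 above 0 and 35 below (median 0.0063). Of its 13 tested gene sums 3 were above 0 and 10 below. That of Klf7, a factor known from neuron development, was called. Of all gene sums 0.377% were called, 0.128% higher and 0.249% lower in KO. Klf7 was chosen after its values were seen. Over 19 peaks Klf7 had 538, 504 and 507 CPM in KO and 410, 430, 428 and 478 CPM in WT, without overlap (log2 fold change 0.25, SE 0.06, adjusted p = 0.0417). Of all gene sums 9.71% did not overlap either, 5.09% with KO above and 4.62% with KO below. Over 20 alternatives the log2 fold change of the Klf7 sum ran from 0.20 to 0.29. The call was lost in 13 of them, among them the one with WT replicates 2 and 3 summed (adjusted p = 0.0581) and those without WT replicates 1, 2 or 3 (adjusted p = 0.205, 0.0641 and 0.119) and without KO replicates 1 or 3 (adjusted p = 0.257 and 0.135). The strongest Klf7 peak by p (chromosome 1, 64087931 to 64088318) averaged 31.3 ± 7.18 CPM in KO and 15.7 ± 3.42 in WT (SD, n = 3 each; log2 fold change 0.96, adjusted p = 0.0705), and passed in 3 of 17 alternatives. Among 12 regulators and partners of KLF2 0 of 66 peaks were called, 32 above 0 and 34 below (median -0.0031), and 6 of 12 gene sums were above 0, with 0 called. The smallest p was 69971 bp from Foxo1, with 59.8, 73.1 and 56.1 CPM in KO and 45.7, 40.3, 40.8 and 52.8 CPM in WT (log2 fold change 0.47, SE 0.15, adjusted p = 0.274). Among 15 genes of IL-7 receptor signalling 0 of 154 peaks were called, 75 above 0 and 79 below (median -0.0052), and 9 of 15 gene sums were above 0, with 0 called. The smallest p was inside Runx1 (chromosome 16, 92644708 to 92645072), with 17.8, 20.1 and 30.1 CPM in KO and 4.66, 6.49, 17.5 and 13.2 CPM in WT (log2 fold change 1.1, SE 0.31, adjusted p = 0.173). Runx1 lies on the chromosome that carries the floxed Opa1 allele, where the Opa1 peak is at 29579139 to 29579524. Any part of linkage in the Runx1 values was not tested.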

How the data were processed

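Sorted spleen Treg cells gave 3 Opa1 KO and 4 WT ATAC-seq libraries, per the labels. The authors deposited whole-number counts per peak, not normalized, for 7 libraries over 50213 peaks. Per the submitters' processing notes, the tools were MACS2 2.1.1, Picard 2.9.4, BWA 0.7.16, bedtools 2.25.0, Trimmomatic 0.36 and SAMtools 1.9, with mm10. Their settings, how peaks were merged and any transposase shift were not stated in the labels. Interval starts are given as deposited. From 78.0% to 86.3% of counts per library were even, as counting both mates of a pair gives. Since PCR copies carry no molecular identifiers, counts are not independent molecules, and the chi-square tests cover counting error only.

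Peaks were assigned to protein-coding genes of a GRCm38.p6 table by overlap or nearest gene body within 100 kb (47468 peaks; 1603 touched several genes and counted for each). edgeR 4.0.16 (quasi-likelihood, robust; R 4.3.3) was fitted on genotype alone. Peaks passed filterByExpr with at least 10 counts in enough libraries and 15 in all, and totals were scaled by TMM, with Benjamini-Hochberg adjustment over all tested peaks or genes. In simulated data this fit called 7.94% of peaks changed 1.5-fold and 45.9% of those changed 2-fold. For gene sums these shares were 47.9% and 91.4%. DESeq2 1.42.0 and limma 3.58.1 (voom) were alternatives. Summaries and plots used pandas 2.3.3 and matplotlib 3.10.9. CPM are counts over TMM-scaled totals. SE is the log2 coefficient over the square root of F. Per-library values were given for each gene's sum, strongest peak, peak with the smallest p, start peak and peaks with an unadjusted p under 0.05. For other lists, called peaks and the peak with the smallest p were named, except 1 that is not reported here. The genes and lists were chosen with earlier results of these data known.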

Additional observations from a re-analysis of the deposited data

Results flagged for a closer look

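In the 4 WT libraries 1 value stood far from the other 3 in 4 of 27 sets examined. Chance gives about 1 in 20 for independent sets. These sets share peaks and some were chosen by their p-value, so the count cannot be set against that rate. At Ccr7 peak 10 WT replicate 4 had 15.22 CPM, against 23.3 to 24.02 in the others. At S1pr1 peak 8 WT replicate 2 had 95.42 CPM, against 69.5 to 72.0. The Klf3 sum was 155.1 CPM in WT replicate 2, against 189 to 194. The Sphk2 sum was 72.05 CPM in WT replicate 2, against 59.5 to 60.2. WT replicate 2 has the lowest total count of the 7 libraries, and the part of depth in these values was not tested. Without it the log2 fold change was 0.51 at S1pr1 peak 8, 0.06 for the Klf3 sum and 0.56 for the Sphk2 sum.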

How the results depend on the processing

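Over 17 alternatives for peaks, which tested 38 to 59 of the 59 peaks, none of the tested ones was called. Over up to 20 alternatives for gene sums none of the 6 sums was called. The lowest adjusted p was 0.0727 for a peak (S1pr1 peak 8 without WT replicate 2) and 0.105 for a sum (Klf2 without WT replicate 2). The S1pr4 log2 fold change, for peak and sum, was -0.14 without KO replicate 1 and between -0.14 and 0.32 over fits without 1 library. That of Il7r peak 3 was 0.01 with WT replicates 2 and 3 summed and 0.01 without a filter, and ran from -0.09 to 0.11 without 1 library. The number of called peaks among all was 33, against 55 with limma-voom, 79 with counts halved, 60 with a mean count of at least 20 and 13 with the replicate block, and 15 to 43 without 1 library. The number of called gene sums was 50, against 12 with DESeq2, 91 with counts halved, 25 with the replicate block and 24 by nearest transcript start, and 12 to 64 without 1 library. The cause was not tested. Same-numbered libraries did not deviate together (correlations 0.009, -0.013 and 0.005). Libraries of a genotype differed by little more than counting error (chi-square per degree of freedom 1.01 to 1.155). These correlations therefore cannot show whether the number pairs samples. Library totals as the only scaling and loess offsets turned the calls over all peaks to 16 higher and 23 lower, and 12 higher and 23 lower, and limma-voom to 34 higher and 21 lower, against 18 and 15. Assignment by transcript start gave no value for Ccr7 and S1pr1, whose starts are not in the table, and a log2 fold change of 0.26 for Klf3. With loess offsets that of the S1pr1 sum was 0.06. The 3 KO and 4 WT libraries, with 38 to 150 counts each at S1pr4, limit what could be seen there.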
